A study of Brassica napus with 6 samples.

Results

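Chitinases are enzymes that cut chitin, the polymer of fungal cell walls, and plants carry a family of genes for them. Many members are secreted defence proteins, grouped with the pathogenesis-related proteins, whose transcripts in Arabidopsis are known to respond to microbes, wounding, hormones and several abiotic stresses. Other family members have lost the catalytic residues and act in cell wall formation. The results below describe 8 chitinase genes that could be read on the arrays, out of 10 loci listed and out of 13356 genes with a probe set of their own. Members were taken by locus name or gene symbol in the probe annotation, and of several probe sets for a gene the brightest was to be selected on its mean signal, although each of the 8 had only 1. AT3G16920, a chitinase-like gene of cell wall formation, and AT3G54420, a chitinase first named for somatic embryogenesis, had no match and were not analysed here.

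The arrays measured RNA from oilseed rape roots (Brassica napus of the cultivar Nourin No.16) after 2 days in hydroponic solution with 10 µM CdCl2. In the first group cadmium was given alone, and in the second it was given together with glutathione in its reduced form (GSH), a tripeptide thiol, at a labelled concentration of 100 mM. Each group had 3 biological replicates with 1 array each, so all 6 arrays come from roots that had cadmium, and roots without it were not analysed here. One label gives the plants' age as 4 weeks after germination, while the growth protocol speaks of seedlings aged 2 to 3 weeks. The comparison addressed which root transcripts respond to GSH when cadmium is in the solution.

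The array carried probes made for Arabidopsis thaliana, so a member is the Arabidopsis gene of its probe set, and its several copies in oilseed rape could not be read apart. A weak signal can come from mismatch between the species, so signals were not ranked between genes. Fewer cells of a type and less RNA per cell cannot be told apart in whole roots. As to tissue, 4 of 14 root markers and 3 of 14 markers of green tissue were matched. Among the root markers, the expansins EXPA7 and EXPA18 of root hairs and the beta-glucosidase PYK10 lay above the bacterial reference. The peroxidase AT4G30170 did not. This reference is the highest mean of the control probe sets for Bacillus genes, 6.05 on the log2 scale. Of the green markers, LHCB4.1 and LHCB4.2 lay just above this reference, at 6.07 and 6.06, and RCA lay just below it, at 6.04. None of the 8 markers of dividing cells was matched.

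A probe set is called varying here if its log2 values ranged over more than 0.01 across the arrays, and constant otherwise. Constant probe sets made up 89.3% of the 22746 tested, and they cannot show a response. Of the 8 members 4 varied, namely AT4G01700, CHI (AT2G43570), AT2G43610 and AT2G43620. The other 4, AT1G02360, AT2G43590, AT3G47540 and AT1G56680, were constant. All 8 had a mean above the bacterial reference, AT1G56680 by the least, at 6.10 against 6.05. Why values were constant was not tested. The limit lay between CHI, which ranged by 0.189, and AT1G02360, which ranged by 0.0088. The varying members were thus selected on their measured range over all arrays. Because this range is taken over both groups, it includes any difference between them, and the tests of the varying members are therefore given as a description.

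With GSH, 3 of the 4 varying members were lower on every array than on any cadmium-only array, and CHI overlapped. The differences were modest, at -0.39 on the log2 scale for AT2G43610, -0.29 for AT4G01700 and -0.22 for AT2G43620, against 0.01 for CHI. In limma, 0 of the 4 had an adjusted p under 0.05, where the share over all 2428 varying probe sets was also 0%. At an unadjusted p under 0.05, 3 were lower and 0 higher, beside 6.67% and 6.18% of all varying probe sets. Every GSH array was lower in 9.84% of varying probe sets and higher in 8.90%. The median difference of the 4 members was -0.26, while that of all varying probe sets was -0.001, with quartiles at -0.04 and 0.03. The median within-group SD of all varying probe sets was 0.047, and the 3 lower members had SDs of 0.054 to 0.272. The place of a difference among all varying probe sets does not take this spread into account. Since AT4G01700 was already known from earlier results to be among the lower genes, the counts above are a description of the 4 genes only.

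**Figure D1:**
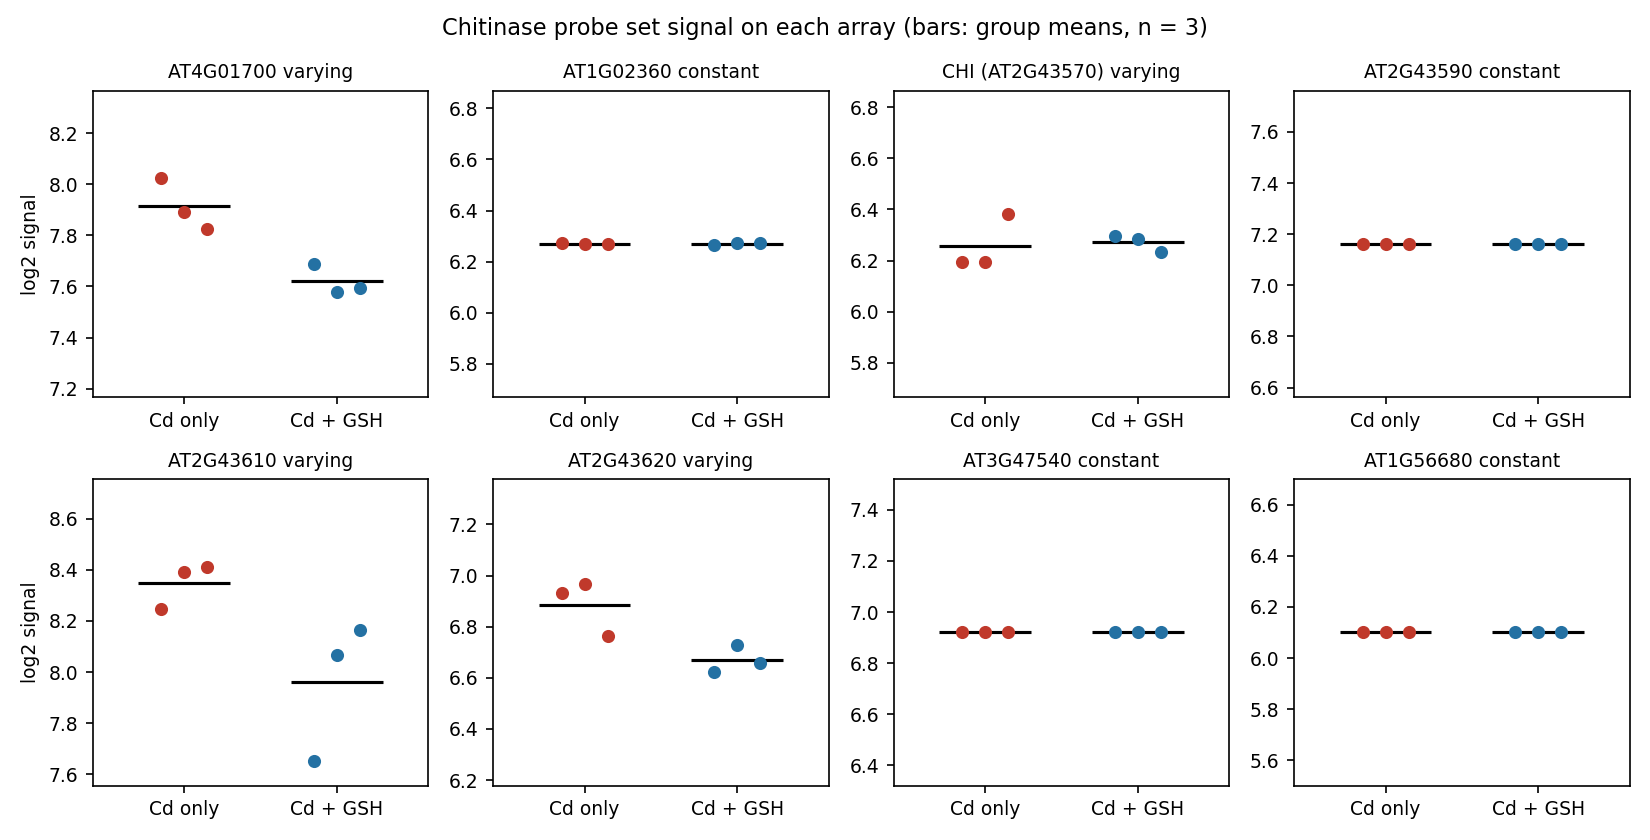
Log2 signal of the 8 matched chitinase probe sets on each array, with cadmium-only arrays in red, GSH arrays in blue and a black bar at each group's mean (n = 3). Every panel spans the same height of the log2 scale; AT4G01700, AT2G43610 and AT2G43620 are lower on all GSH arrays, CHI overlaps, and the other 4 are flat.

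A run of chitinase genes lies on Arabidopsis chromosome 2, with consecutive locus names from AT2G43570 to AT2G43620. These belong to glycoside hydrolase family GH19, the plant chitinase family with a lysozyme-like fold. All 6 loci of the run had a probe set of their own, 4 of them as members and AT2G43580 and AT2G43600 as other chitinase loci. The first gene, CHI, and the last 2 varied, and the 3 between them were constant.

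AT2G43610 had the widest spread of the members. Its log2 signal was 8.25, 8.39 and 8.41 on the cadmium-only arrays and 7.65, 8.07 and 8.16 on the GSH arrays. The GSH arrays all lay below the cadmium-only arrays, by a gap of 0.08, and GSH replicate 1 was the lowest by a clear distance. The group means were 8.35 ± 0.09 (SD, n = 3) with cadmium only and 7.96 ± 0.27 (SD, n = 3) with GSH. The log2 difference of AT2G43610 was -0.39, a change in signal of -23.6%, and limma put its 95% interval at -0.75 to -0.03, with an adjusted p of 0.360. Without GSH replicate 1 the difference was -0.23, so that array carried much of its size.

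AT2G43620, the neighbour in the run, gave 6.93, 6.97 and 6.76 on the cadmium-only arrays and 6.62, 6.73 and 6.66 on the GSH arrays. Here the groups were apart by only 0.03, between cadmium-only replicate 3 and GSH replicate 2. Means of AT2G43620 were 6.89 ± 0.11 (SD, n = 3) and 6.67 ± 0.05 (SD, n = 3), a difference of -0.22 in log2 signal, or -14.0% with GSH. Its limma interval ran from -0.37 to -0.06, and the adjusted p was 0.290. GSH replicate 1 was the lowest array for both neighbours, whereas the cadmium-only array nearest to the GSH group was replicate 1 for AT2G43610 and replicate 3 for AT2G43620.

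CHI, at the other end of the run, is a chitinase that shares its symbol with chalcone isomerase, a different gene. Its values were 6.19, 6.20 and 6.38 with cadmium only and 6.30, 6.29 and 6.23 with GSH. The GSH arrays lay inside the cadmium-only range, which was set by the high replicate 3. The log2 difference of CHI was 0.01 (limma interval -0.13 to 0.16, adjusted p = 0.953), so a difference of the size seen for AT2G43610 lies outside its interval, although the difference between these genes was not tested. The sign of the CHI difference turned when cadmium-only replicate 1 or 2 was left out, to -0.017 each time.

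Between them, AT2G43590 stood at 7.16 on all arrays and ranged by 0.0007. AT2G43580 stood at 5.96, below the bacterial reference, and AT2G43600 at 6.21. For these 3 genes the table gives no information on GSH, and their constancy does not show that the transcripts kept their level.

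**Figure D2:**
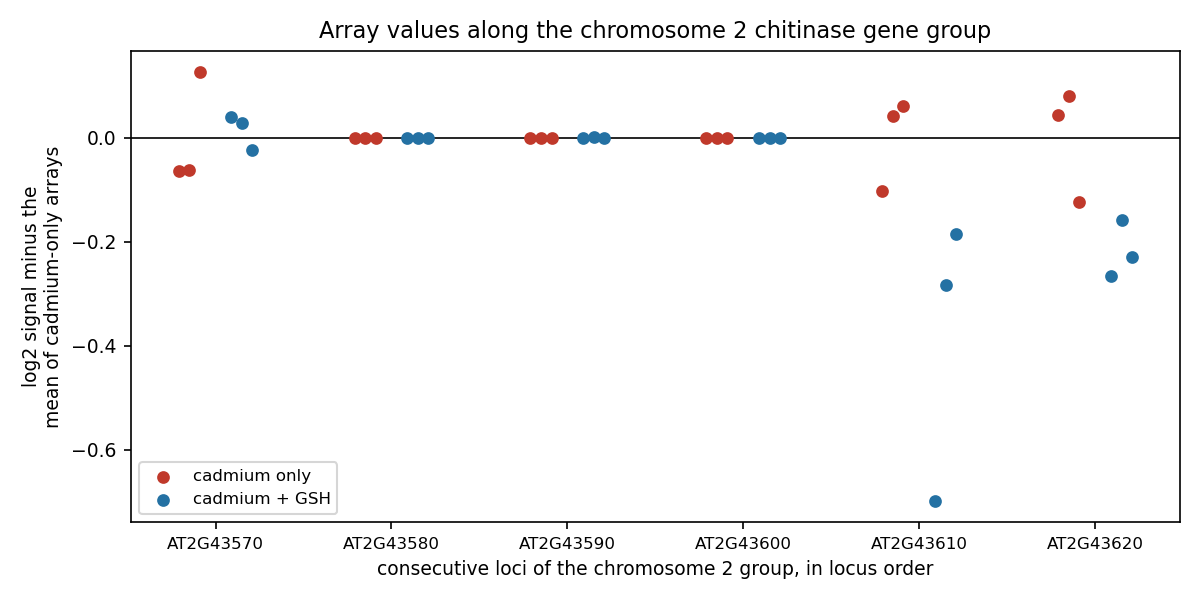
Log2 signal minus the mean of the cadmium-only arrays for the 6 consecutive chitinase loci on Arabidopsis chromosome 2, in locus order, with 1 point per array. CHI (AT2G43570) scatters around 0 in both groups, the 3 genes after it are flat, and the GSH arrays of AT2G43610 and AT2G43620 lie below their cadmium-only arrays.

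AT4G01700 and AT1G02360 are GH19 chitinase genes outside the run. AT4G01700 gave 8.02, 7.89 and 7.83 on the cadmium-only arrays and 7.69, 7.58 and 7.59 on the GSH arrays. Among the members it had the widest gap between the groups, 0.14, which was larger than either SD. Means were 7.91 ± 0.10 (SD, n = 3) with cadmium only and 7.62 ± 0.06 (SD, n = 3) with GSH. The log2 difference of AT4G01700 was -0.29, or -18.4%, and its limma interval ran from -0.44 to -0.14. By p it stood in place 42 of 2428, and its adjusted p of 0.219 did not pass. Leaving out cadmium-only replicate 1, where it was highest, gave -0.24.

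AT1G02360 lay just under the limit for varying. Its values were 6.27 on 5 arrays and 6.26 on GSH replicate 1, and its group means differed by -0.001. AT3G47540 and AT1G56680, 2 further chitinase family genes, stood at 6.92 and 6.10 on every array. AT3G47540 was constant to within 6.8e-08 although it was well above the bacterial reference.

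In the order of all differences, 83 of the 2428 varying probe sets were lower than AT2G43610, 111 lower than AT4G01700 and 141 lower than AT2G43620. The lowest 5% of varying probe sets lay below -0.27, so AT2G43610 and AT4G01700 were among them and AT2G43620 was not. CHI lay near the middle, with 865 probe sets higher.

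**Figure D3:**
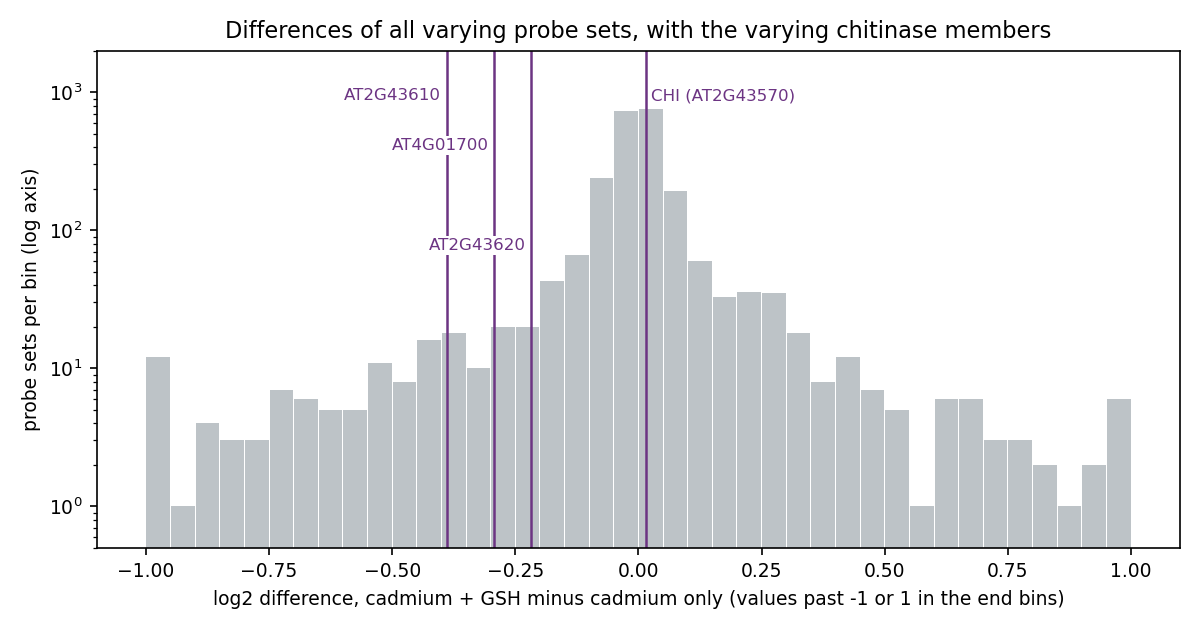
Number of varying probe sets (log axis) by log2 difference, cadmium with GSH minus cadmium only, in bins of 0.05, with purple lines at the 4 varying chitinase members. AT2G43610 (-0.39), AT4G01700 (-0.29) and AT2G43620 (-0.22) lie in the lower tail and CHI (0.01) in the central peak.

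The 4 members did not share 1 course over the arrays. Over the 6 arrays the Pearson correlation was 0.83 between AT4G01700 and AT2G43620, 0.69 between AT2G43610 and AT2G43620 and 0.50 between AT4G01700 and AT2G43610. CHI was at -0.33 with AT4G01700, -0.10 with AT2G43610 and -0.54 with AT2G43620. These values mix the difference between groups with the spread inside them, come from the same arrays, and are given as a description.

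The genes most like each member were taken from the 1188 other varying probe sets with 1 gene name, by the same correlation over 6 arrays. Each r was picked as among the highest of these 1188 over only 6 arrays, so it is a description and does not show shared regulation. For AT2G43610 they were AT4G27450 (r = 0.98), of the aluminium-induced protein family, and AT5G16880 (r = 0.97). For AT2G43620 they were AT3G15450 (r = 0.98), of the same family as AT4G27450, and the transcription factor BZIP53 (r = 0.97). The size of movement differed widely, with a log2 difference of -1.88 for AT4G27450 and -0.79 for AT3G15450. AT4G01700 was most like AT3G03180 (r = 0.98) and GAT1_2.1 (r = 0.98), of the glutamine amidotransferases, whose log2 differences were -0.11 and -0.06. CHI was most like the root hair expansin EXPA18 (r = 0.99) and AT5G53880 (r = 0.98). EXPA18 was highest on cadmium-only replicate 3, at 6.78, as CHI was, and it was the 1 varying root marker; its part in the values of CHI was not tested.

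Of 14 other chitinase loci 7 were matched to a probe set with a single gene, and another 4 lay in probe sets with several genes and were not used. ChiC (AT4G19810), a chitinase of the other plant family, GH18, alone varied. It gave 6.73, 6.70 and 6.84 with cadmium only and 6.69, 6.60 and 6.73 with GSH. The groups overlapped, and the log2 difference of ChiC was -0.09 (limma interval -0.21 to 0.04, adjusted p = 0.519). The GH18 genes AT4G19720, AT4G19730, AT4G19740 and AT4G19820 were constant at 5.86 to 6.08, and of these only AT4G19820 stood above the bacterial reference.

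Chitin fragments are sensed in Arabidopsis by LysM receptor kinases, which act through cytoplasmic kinases and MAP kinases on WRKY transcription factors. Of 21 genes listed for this route 4 were matched, none of them a LysM receptor. The kinases BIK1 and AT5G18610 and the transcription factor WRKY53 were constant, and AT5G18610 and WRKY53 stood below the bacterial reference. WRKY22, another transcription factor, varied but stood below the bacterial reference in both groups, at 5.84 and 5.91, so no size is given. For ethylene and salicylate signalling, which control many defence genes, 1 of 14 was matched, EIN3, and it was constant. Of 12 genes of cellulose synthesis, the setting of the chitinase-like proteins, COB was the only match. It too was constant, at 5.79, below the bacterial reference.

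Other pathogenesis-related proteins were better covered, with 9 of 16 matched and 4 varying. Of these 4, 0 had an adjusted p under 0.05 in limma and 1, LCR69, had an unadjusted p under 0.05 with a higher value, beside 6.18% of all varying probe sets. LCR69 and LCR68 were higher on every GSH array, beside 8.90% of all varying probe sets. LCR69, of the plant defensins, small cysteine-rich antimicrobial proteins, gave 6.83, 7.00 and 6.84 with cadmium only and 7.31, 7.18 and 7.13 with GSH. Every GSH array was above every cadmium-only array, and the log2 difference of LCR69 was 0.32 (limma interval 0.15 to 0.49, adjusted p = 0.219). LCR68, a defensin gene close by, gave 7.40, 7.72 and 7.76 against 7.86, 7.96 and 7.82, again without overlap. Its log2 difference was 0.26 (interval -0.01 to 0.52, adjusted p = 0.409). AT4G16260, a beta-1,3-glucanase, the kind of enzyme that acts beside chitinases on fungal walls, gave 6.69, 6.94 and 7.02 against 7.09, 7.02 and 7.24. Its groups overlapped at 7.02, and the log2 difference was 0.23 with an adjusted p of 0.448. OSM34, an osmotin of the thaumatin-like proteins, differed by 0.01. The median difference of the 4 varying genes in this list was 0.25, against -0.26 for the chitinase members; the difference between the lists was not tested.

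**Figure D4:**
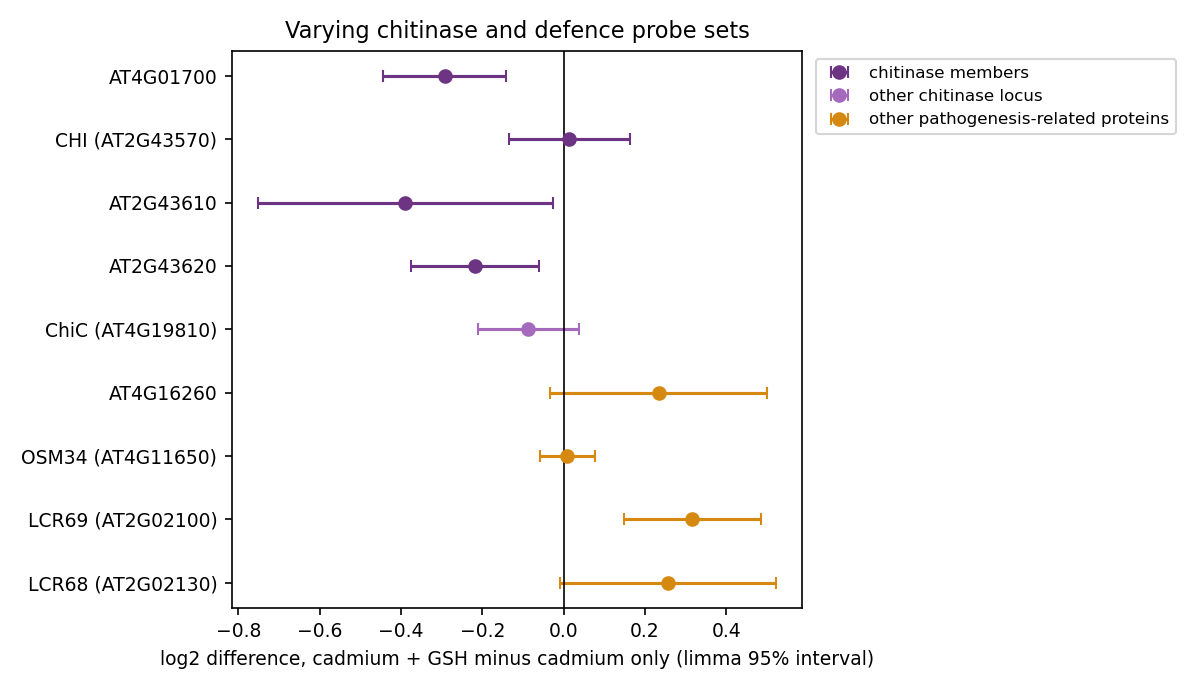
Log2 difference, cadmium with GSH minus cadmium only, with the limma 95% interval, for the varying chitinase members (dark purple), ChiC (light purple) and the other pathogenesis-related proteins (orange), all with means above the bacterial reference. AT4G01700, AT2G43610 and AT2G43620 lie below 0, LCR69 lies above 0, and the other intervals reach across 0; none of these genes passed the adjusted threshold.

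A measure of how far labelled RNA reached along a transcript, the log2 difference between a 3' and a 5' control probe set of actin, was 1.24 ± 0.05 (SD, n = 3) on the cadmium-only arrays and 1.45 ± 0.07 (SD, n = 3) on the GSH arrays. In that actin pair the 3' set ranged by 0.37 and the 5' set by only 0.05, so the 3' set moved more. The groups differed by 0.02 in a second actin pair, by 0.03 and -0.19 in the ubiquitin pairs and by 0.002 in a GAPDH pair. In the second actin pair the 3' set was constant, and in the ubiquitin pair at -0.19 and the GAPDH pair the 5' set was, so these pairs could move through 1 set only. The 3' set of that GAPDH pair ranged by only 0.012, and a further GAPDH pair was constant in both sets. The part of this actin difference in the lower chitinase signals was not tested. Medians of the varying probe sets ran from 6.26 to 6.29 over the arrays, and centring on them left AT4G01700 at -0.28, AT2G43610 at -0.38 and AT2G43620 at -0.21.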

How the data were processed

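Root RNA was labelled with biotin by a 3' amplification kit and hybridised to 1 Arabidopsis array per sample, per the labels' protocols. The deposited table holds 1 log2 value per probe set and array; the log scale was read from the values. The submitters' processing notes name R 2.7.2, while background correction, normalisation and probe-set summary are not given in the sources used here. Scan dates were not used here, so no batch was tested. The number of arrays limits the precision.

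Of 22810 probe sets, 64 controls were set apart. The annotation gave 13513 of the rest 1 gene, 503 several and 8730 none. Loci were matched by name, or by symbol where the nearest Entrez numbers lay on the same chromosome, a criterion set after seeing the annotation. The reference for background was the highest mean of 27 bacterial control sets, those for the Bacillus genes dap, lys, phe, thr and trpn. Control sets for genes of other bacteria were not part of it.

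Differences (cadmium with GSH minus cadmium only) came from limma 3.58.1, run in R 4.3.3 (lmFit, eBayes, Benjamini-Hochberg, threshold 0.05) on the 2428 varying probe sets, without further normalisation. The fit was also run on simulated data, with added differences larger than those of the members. That run does not bear on differences of the members' size. Members and lists were chosen with earlier results of these data known. All 8 matched members, the matched chitinase loci, up to 4 varying genes per list by p, and the 2 genes most correlated with each varying member are named. For 1 value, the smallest p of an exact permutation test over 3 against 3 arrays is 0.1. Alternatives were other range limits, quantile normalisation, median centring, a filter on dim probe sets, an intensity trend, a replicate block, a plain two-sample statistic, averaged probe sets and leaving out each array.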

Additional observations from a re-analysis of the deposited data

How the results depend on the processing

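Under the 16 alternatives run, AT4G01700 stayed between -0.34 and -0.24, AT2G43610 between -0.49 and -0.23 and AT2G43620 between -0.28 and -0.18, with adjusted p from 0.110 upward, and 0 members were called. All 3 were lower on every GSH array in each alternative. Only quantile normalisation and median centring changed the array values of these genes, so the other settings could not have undone this. The count of members with an unadjusted p under 0.05 was 2 or 3, but these were not always the same genes. AT4G01700 was counted in every alternative. AT2G43610 was not counted with a range over 0.0001, without a limit or with the plain two-sample statistic. It was also not counted without cadmium-only replicate 1, 2 or 3, or without GSH replicate 2. AT2G43620 was not counted without GSH replicate 1. Without cadmium-only replicate 3 the 3 counted included CHI, which was higher with GSH, by 0.077. CHI turned to -0.017 without cadmium-only replicate 1 and to -0.017 without cadmium-only replicate 2; over the arrays left out in turn it ran from -0.017 to 0.077. The median of the 4 varying members ran from -0.31 to -0.21 with 1 array left out. Over all probe sets, calls were 0 with the limit of 0.01, 5 with a range over 0.1, 2 with quantile normalisation, and 0 to 13 with 1 array left out, the 13 coming without cadmium-only replicate 3. Without a limit there were 42, of which 0 were varying and the largest difference was 2.0e-09. In the fit with a replicate block by number, 0 probe sets were called, and AT4G01700 had an adjusted p of 0.249 and AT2G43610 and AT2G43620 0.320 each. Deviations of same-numbered arrays correlated at -0.11, -0.21 and 0.13, and those of differently numbered arrays at -0.23 to 0.32. With 3 arrays per group these values cannot decide whether the numbers pair the arrays. Constant members cannot show a response at any setting.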
